A study of Mus musculus with 12 samples.

Results

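The genes described here are 7 mouse genes of nucleotide excision repair, lesion bypass and nucleotide supply that have been linked to the transcription factor p53: Ddb2, Xpc, Ercc5, Polk, Polh, Rev3l and Rrm2b. They were chosen by gene symbol, and all 7 were found among the 26264 gene symbols counted. The RNA came from glomeruli, the filtering units of the kidney, of male BALB/c mice obtained at 8 weeks of age. The 4 groups were untreated (baseline) mice of the substrains BALB/cAjcl (here AJcl) and BALB/cByJcl (here ByJcl), and mice of both substrains at Day 5 after 1 retro-orbital injection of adriamycin (ADR, doxorubicin hydrochloride) at 10 mg/kg. Each group held 3 libraries. ADR was injected under isoflurane anesthesia. The baseline samples are labelled untreated, although the treatment text shared by all samples also mentions saline-injected controls. Isolation rested on magnetic beads held in glomerular capillaries, so the samples were enriched glomeruli and not a sorted cell type.

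As background, nucleotide excision repair removes bulky damage from DNA. XPC and DDB2 find the lesion, a multiprotein helicase opens the helix around it, ERCC5 (also called XPG) cuts on the 3′ side, the ERCC1-XPF pair cuts on the 5′ side, and polymerases fill the gap. Where a lesion is met by a replication fork or a repair gap, bypass polymerases can copy across it: Polk encodes polymerase kappa, Polh polymerase eta and Rev3l the catalytic subunit of polymerase zeta. Rrm2b encodes the p53-inducible small subunit of ribonucleotide reductase, which supplies deoxynucleotides (dNTPs) for repair outside S phase. Doxorubicin inserts into DNA and traps topoisomerase II, and p53 is a main regulator of the transcriptional answer to such damage.

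Before the members were compared, the 12 libraries were examined. Total counts per library ranged from 42198416 to 54687045. Replicate 1 of the AJcl Day 5 group, A-ADR1, was left out of the main fit, following the study, which excluded this library for reduced glomerular purity. In the present counts, scaled to library size as CPM, its summed level of 6 tubular markers was 3736 CPM (scaling of all 12 libraries), against 1438 and 1994 CPM in the other AJcl Day 5 libraries (scaling of the 11 fitted libraries). An AJcl baseline library that was kept stood at 3438 CPM, and the podocyte marker sum of A-ADR1, 11687 CPM, lay inside the range of the kept libraries. The ratio of the podocyte to the tubular sum was lowest in A-ADR1 at 3.13, against 4.88 in AJcl baseline replicate 3 and 8.07 to 56.6 in the other 10 libraries. The study judged purity on a ratio of this kind. The podocyte markers summed here may differ from those of the study, so these values are not the study's own. The podocyte markers that define this tissue were detected in every group, with none at 0, and their sum ranged from 9944 to 22600 CPM over the 11 remaining libraries. All 7 genes passed the filter on low counts, together with 17002 genes in all. Every library carried the same batch label, but baseline and Day 5 counts were deposited in separate tables, so a difference in processing between the tables and the effect of ADR cannot be told apart.

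In untreated glomeruli, transcripts of the damage sensor Xpc were the most abundant of the 7 and those of its partner Ddb2 the least. Levels between genes were compared per kilobase of exon over the 6 baseline libraries. Xpc was at 11.1 ± 0.887 CPM per kb (SD, n = 6). The incision nuclease Ercc5 followed at 6.12 ± 0.467 CPM per kb, then Rrm2b at 5.51 ± 0.500, Polk at 5.35 ± 0.709 and Rev3l at 4.47 ± 0.550 CPM per kb. From Ercc5 down to Rev3l, each gene's range over the libraries overlapped that of the next gene, so their order was not resolved. Polh (1.85 ± 0.154 CPM per kb) and Ddb2 (1.31 ± 0.105 CPM per kb) lay below all of these, and their ranges were separate from each other. Rrm2, which encodes the small reductase subunit of dividing cells, was at 0.340 ± 0.0753 CPM per kb.

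**Figure D1:**
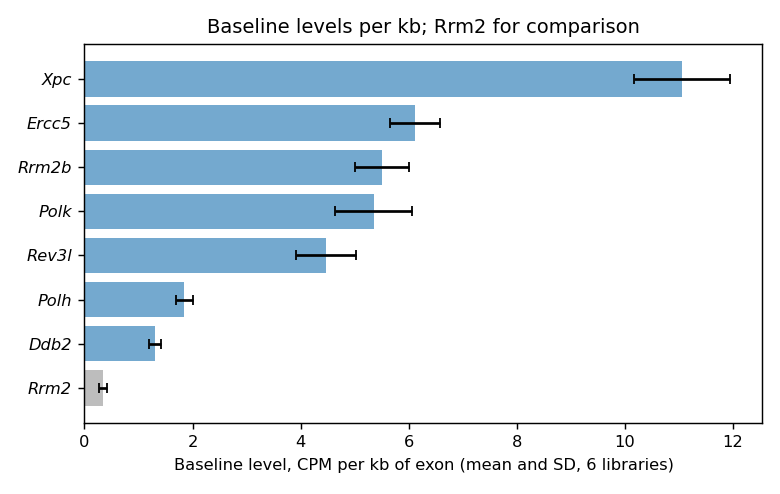
Baseline level of the 7 genes and of Rrm2 (grey) in CPM per kb of exon on the horizontal axis. Bars are means over 6 untreated libraries and lines the SD. Xpc stands at 11.1 CPM per kb, Ddb2 at 1.31 and Rrm2 at 0.340.

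The substrains did not differ detectably in any of the 7 genes before ADR. In the quasi-likelihood test of edgeR, adjusted over all genes by the Benjamini-Hochberg method, 0 of 7 members were called between ByJcl and AJcl at baseline (adjusted p from 0.677 to 0.967), where 0.159% of all tested genes were called. None of the 7 had an unadjusted p under 0.05, against 1418 of all genes. The fitted log2 differences (ByJcl minus AJcl) ran from -0.15 for Rrm2b to 0.20 for Polk. Their 95% intervals together spanned -0.39 to 0.60. The libraries of the 2 substrains overlapped in every member, while 14.5% of all tested genes showed no overlap at baseline. Markers of other cells stood apart in the same comparison, although none was called: all 9 immune markers were higher in ByJcl (median log2 difference 1.02) and all 6 tubular markers lower (median -0.93). Their part in the values of the 7 genes was not tested.

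The comparison of Day 5 with baseline asked how these genes stood after ADR. Polk and Ercc5 rose in the mean response of the 2 substrains, Polk 1.65-fold and Ercc5 1.29-fold, and the other 5 genes were not called. These 2 of 7 calls, both higher, compare with 6.29% of all tested genes called higher and 10.4% called in either direction. Within ByJcl mice, 1 of 7 (Polk) was called higher, against 5.75% of all genes called higher and 10.6% in either direction. Within AJcl mice, 0 of 7 were called, against 0.312% of all genes. At an unadjusted p under 0.05 there were 1 of 7 members (Polk) and 1666 of 17002 genes in AJcl mice, and 3 of 7 members (Polk, Ercc5 and Polh) and 4557 of 17002 genes in ByJcl mice. The median log2 fold change of the 7 was 0.12 in the mean response, beside -0.0042 over all tested genes. In bulk glomerular RNA, a change in the number of cells of a type and a change in RNA per cell cannot be told apart.

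**Figure D2:**
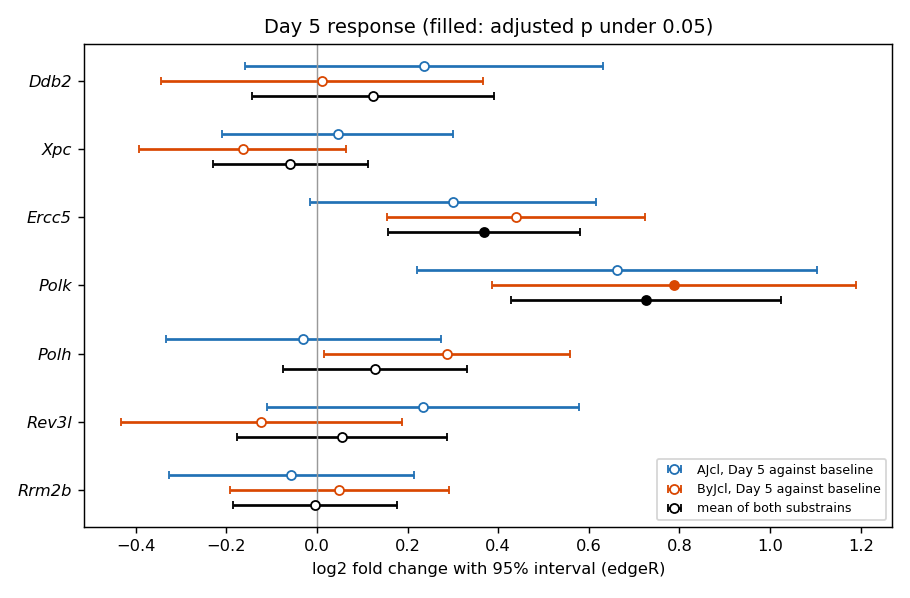
Log2 fold change at Day 5 against baseline for each of the 7 genes with its 95% interval, in AJcl (blue), ByJcl (orange) and as the mean of both (black). Filled points passed the adjusted p threshold: Polk in ByJcl and in the mean response, and Ercc5 in the mean response (log2 0.37).

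Polk lies on chromosome 13 at 96617196 to 96679087 on the minus strand (GRCm39, GENCODE vM39; NCBI gene 27015). Polymerase kappa copies past bulky guanine adducts of the DNA minor groove and also fills some excision repair gaps. Its level in AJcl mice was 36.5, 35.7 and 29.3 CPM at baseline, and 45.2 and 61.9 CPM at Day 5. In ByJcl mice it was 44.2, 37.6 and 34.8 CPM at baseline, and 55.5, 85.7 and 60.1 CPM at Day 5. All 5 fitted Day 5 libraries stood above all 6 baseline libraries, by a narrow gap between 45.2 and 44.2 CPM, and the ByJcl Day 5 replicate 2 was the highest. Such a separation over both substrains was seen for 5.77% of all tested genes. The mean-response log2 fold change of Polk was 0.73 (SE 0.14, 95% interval 0.43 to 1.02, edgeR adjusted p = 0.00761). In ByJcl mice alone it was 0.79 (SE 0.18, edgeR adjusted p = 0.0215). In AJcl mice alone it was 0.66 (SE 0.20), which did not pass the adjustment (edgeR adjusted p = 0.273). The responses of the substrains differed by 0.13 on the log2 scale (ByJcl minus AJcl, 95% interval -0.47 to 0.72, edgeR adjusted p = 0.929).

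The Polk values rested in part on single libraries. The AJcl log2 fold change was 0.40 without AJcl Day 5 replicate 3 and 0.86 without replicate 2, and it was 0.22 with A-ADR1 in place of replicate 3. Without AJcl Day 5 replicate 3 the mean-response log2 fold change was 0.60 and edgeR's adjusted p was 0.0564. The ByJcl call was lost, in the same edgeR test, without ByJcl baseline replicate 2 (log2 0.77, adjusted p = 0.0776), ByJcl baseline replicate 3 (log2 0.71, adjusted p = 0.0757) or ByJcl Day 5 replicate 2 (log2 0.57, adjusted p = 0.0842). In A-ADR1, Polk was at 34.0 CPM on the scaling of all 12 libraries, inside the AJcl baseline range of 30.3 to 37.2 CPM. With A-ADR1 included, the mean response was 0.63 (edgeR adjusted p = 0.0235). Polk shares 94 bases with the oppositely transcribed gene Cert1, a ceramide transfer protein gene. Cert1 fell by 0.34 on the log2 scale in the mean response (edgeR adjusted p = 0.0199), the opposite direction to Polk. The library kit kept strand, but the strand setting of the counting is not given in the sources used here.

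Ercc5 lies on chromosome 1 at 44186888 to 44220420 on the plus strand of the same annotation (NCBI gene 22592). Its level in AJcl mice was 37.0, 44.8 and 37.4 CPM at baseline, and 46.7 and 51.2 CPM at Day 5. In ByJcl mice it was 42.4, 38.5 and 40.8 CPM at baseline, and 52.7, 65.2 and 47.0 CPM at Day 5. Again none of the 5 fitted Day 5 libraries fell within the baseline range, and the lowest of them (46.7 CPM) was close to the highest baseline library (44.8 CPM). The mean-response log2 fold change of Ercc5 was 0.37 (SE 0.096, 95% interval 0.16 to 0.58, edgeR adjusted p = 0.0336). In ByJcl mice it was 0.44 (edgeR adjusted p = 0.0529) and in AJcl mice 0.30 (edgeR adjusted p = 0.539), neither past the threshold. The difference between these responses was 0.14 (95% interval -0.29 to 0.57, edgeR adjusted p = 0.874). Of the 11 fits that each left out 1 library, 8 lost the Ercc5 call in the mean response, with a highest edgeR adjusted p of 0.171. Those 8 were without AJcl baseline replicates 1 or 3, either AJcl Day 5 library, any of the ByJcl baseline libraries, or ByJcl Day 5 replicate 2. The direction was up in all 11. In A-ADR1, Ercc5 was at 44.1 CPM on the scaling of all 12 libraries, inside the AJcl baseline range of 37.7 to 44.5 CPM.

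**Figure D3:**
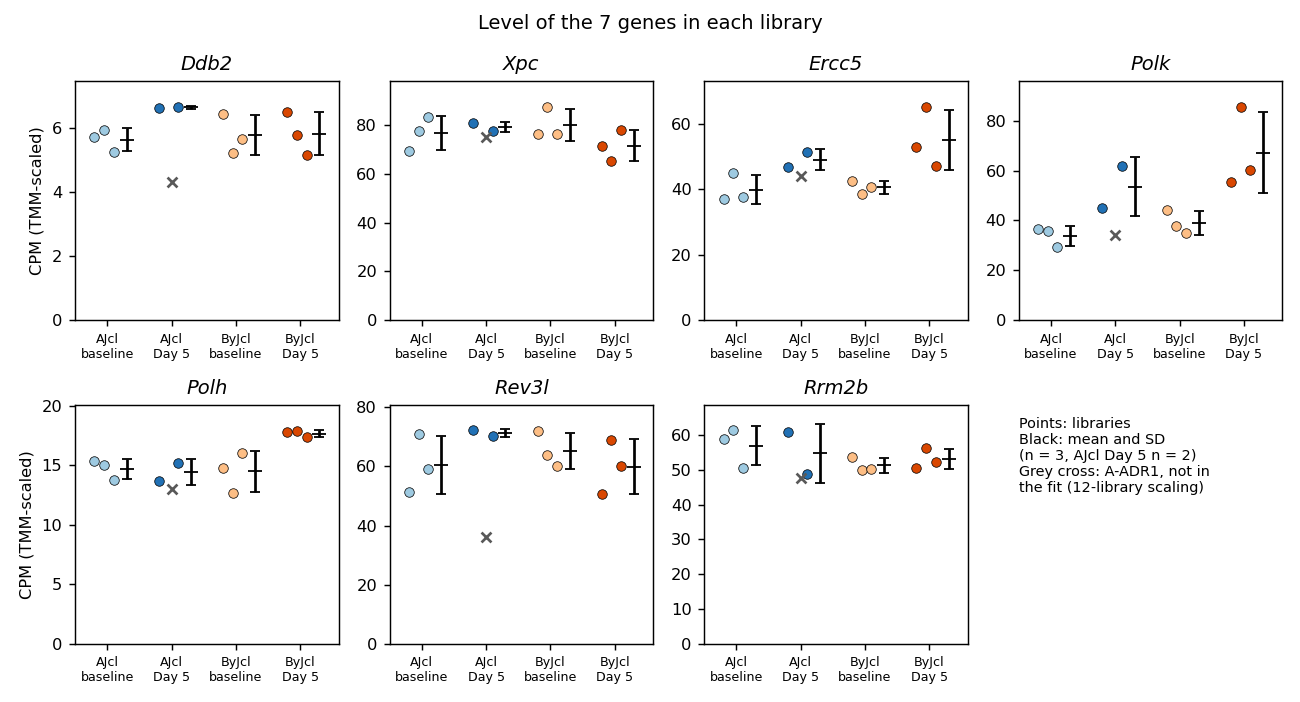
Level of each of the 7 genes in CPM (vertical axes from 0) for every library of the 4 groups. Coloured points are libraries, black marks the mean and SD, and the grey cross is A-ADR1, which was outside the fit. Fitted Day 5 points stand above baseline points in Polk and Ercc5, and all fitted libraries of Rrm2b lie between 48.8 and 61.4 CPM.

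Upstream sequences were available for 3 of the 7 genes in the RefSeq promoter table (GRCm38.p6): Ercc5, Polh and, for 2 annotated starts, Polk. Ddb2, Xpc, Rev3l and Rrm2b had no entry. They were searched, on both strands and over the 250 bases before each start, for the p53 half-site consensus, for CCAAT and for GGGCGG. The upstream stretches of the 2 genes called at Day 5 are shown where they hold no annotated untranslated exon. In the coordinates of that build, the Ercc5 stretch is chr1:44147494-44147727 on the plus strand, with the CCAAT match in capitals. The Polk stretch lies before the inner of its 2 starts, inside the longer transcripts, at chr13:96519188-96519437 on the minus strand, with the p53 half-site match in capitals.
Ercc5: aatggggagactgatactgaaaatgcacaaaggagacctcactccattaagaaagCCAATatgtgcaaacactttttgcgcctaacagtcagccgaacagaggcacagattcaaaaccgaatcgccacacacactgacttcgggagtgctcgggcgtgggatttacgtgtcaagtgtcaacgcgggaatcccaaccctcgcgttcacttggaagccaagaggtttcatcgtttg
Polk: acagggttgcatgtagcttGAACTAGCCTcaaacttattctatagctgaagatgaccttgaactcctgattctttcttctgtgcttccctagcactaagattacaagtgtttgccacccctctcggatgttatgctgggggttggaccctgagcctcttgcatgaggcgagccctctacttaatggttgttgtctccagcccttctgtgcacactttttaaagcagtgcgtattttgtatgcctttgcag

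The half-site match of Polk begins 231 bases before the inner start. A match to this 10-base consensus was found in 7.13% of all 32851 promoter entries of the same length, and a full site (2 half-sites with at most 13 bases between them) in 0.0639%. No half-site was matched in the windows of Ercc5, of Polh or of the outer Polk start, and no full site in any of the 4 windows. CCAAT was matched in the Ercc5 window alone among the 4 (33.8% of all entries held it). GGGCGG was matched in the windows of Polh and of the outer Polk start (32.7% of all entries). These matches describe letters in short windows, and binding was not measured.

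The lesion sensors Xpc (chromosome 6, 91466287 to 91492898, minus strand, GRCm39) and Ddb2 (chromosome 2, 91040809 to 91078878, minus strand) were not called in any comparison. Xpc in AJcl mice was at 69.5, 77.5 and 83.3 CPM at baseline, and at 80.8 and 77.7 CPM at Day 5. In ByJcl mice Xpc was at 76.4, 87.6 and 76.4 CPM at baseline, and at 71.4, 65.2 and 78.1 CPM at Day 5. The groups overlapped in both substrains, and the mean-response interval, -0.23 to 0.11 on the log2 scale, allowed only small changes in either direction. Ddb2 in AJcl mice was at 5.72, 5.95 and 5.26 CPM at baseline, and at 6.62 and 6.67 CPM at Day 5. In ByJcl mice Ddb2 was at 6.44, 5.21 and 5.67 CPM at baseline, and at 6.51, 5.79 and 5.16 CPM at Day 5. The AJcl groups of Ddb2 did not overlap, as was so for 25.1% of all tested genes, and the AJcl log2 fold change of 0.24 carried an SE of 0.18 (edgeR adjusted p = 0.749). In A-ADR1, Ddb2 was at 4.32 CPM, the lowest of all 12 libraries, and the sign of the AJcl change turned in the fits where A-ADR1 replaced either of the other 2 libraries. The reference annotation places Acp2 and A330069E16Rik over Ddb2 on the other strand, and neither of these was called.

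Of the bypass polymerases other than Polk, Polh (chromosome 17, 46481167 to 46514658, minus strand, GRCm39) was not called. Its ByJcl groups did not overlap, as was so for 33.4% of all tested genes. Polymerase eta copies accurately past ultraviolet-induced pyrimidine dimers. In ByJcl mice Polh was at 14.8, 12.6 and 16.0 CPM at baseline, and at 17.8, 17.9 and 17.4 CPM at Day 5. In AJcl mice Polh was at 15.3, 15.0 and 13.7 CPM at baseline, and at 13.6 and 15.2 CPM at Day 5. The ByJcl log2 fold change was 0.29 (SE 0.12, edgeR adjusted p = 0.164) and the AJcl change -0.030 (edgeR adjusted p = 0.964). The difference between these 2 responses was 0.32 (95% interval -0.091 to 0.73, edgeR adjusted p = 0.683). Rev3l (chromosome 10, 39608095 to 39751214, plus strand), of polymerase zeta, which extends past lesions after another polymerase has inserted opposite them, varied more between libraries. In AJcl mice Rev3l was at 51.5, 71.1 and 59.3 CPM at baseline, and at 72.2 and 70.3 CPM at Day 5. In ByJcl mice Rev3l was at 71.9, 63.8 and 60.1 CPM at baseline, and at 50.6, 69.1 and 60.3 CPM at Day 5. Its mean-response log2 fold change was 0.055 (SE 0.11, edgeR adjusted p = 0.804). In A-ADR1 Rev3l was at 36.3 CPM, the lowest of the 12 libraries, and with that library included the mean response was -0.073.

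Rrm2b (chromosome 15, 37924196 to 37961562, minus strand, GRCm39) showed no detectable change between the 4 groups. In AJcl mice it was at 59.0, 61.4 and 50.6 CPM at baseline, and at 60.8 and 48.8 CPM at Day 5. In ByJcl mice it was at 53.6, 49.9 and 50.4 CPM at baseline, and at 50.6, 56.3 and 52.3 CPM at Day 5. The groups overlapped in both substrains, and the mean-response log2 fold change was -0.0035 (SE 0.082, 95% interval -0.19 to 0.18, edgeR adjusted p = 0.986). In A-ADR1 it was at 47.7 CPM, the lowest of the 12 libraries. Its counterpart Rrm2 was low in all libraries, at 32 to 92 counts, and was not called (mean-response log2 fold change 0.29, edgeR adjusted p = 0.602). The count ratio of Rrm2b to Rrm2 had geometric means of 47.6 in AJcl baseline, 52.5 in AJcl Day 5, 49.9 in ByJcl baseline and 32.9 in ByJcl Day 5 libraries. Permuting Day 5 and baseline within each substrain, an exact two-sided permutation test gave p = 0.515 for the log2 ratio over both substrains. Within ByJcl mice the exact permutation p was 0.3, and within AJcl mice it was 1. The smallest two-sided p that either substrain alone allows is 0.1, so neither of these tests could have passed a threshold of 0.05.

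At Day 5, ByJcl and AJcl were compared directly. None of the 7 genes was called (0 of 7, against 0.165% of all tested genes, by edgeR), and 0 of 7 had an unadjusted p under 0.05, where 2374 of all genes did. Polh was higher in ByJcl by 0.29 on the log2 scale (95% interval -0.012 to 0.60) without overlap of the libraries. For Rev3l and Ddb2 the fitted differences (ByJcl minus AJcl) were -0.25 and -0.19, also without overlap. Both were fitted without A-ADR1, the lowest library for these genes, and both turned in direction in some fits that held it: Rev3l was at 0.0080 with all 12 libraries, and with A-ADR1 in place of either other AJcl Day 5 library Rev3l was at 0.13 or 0.17 and Ddb2 at 0.084 or 0.073. These 3 of 7 without overlap compare with 33.4% of all tested genes. Markers of other cells stood apart here too. In ByJcl, 8 of 9 immune markers were higher (median log2 difference 1.37) and all 6 tubular markers lower (median -1.11). Of 11 proliferation markers 10 were higher (median 0.86), and the mesangial marker Tagln was called higher (log2 1.15, edgeR adjusted p = 0.0436). What they contribute to the values of the 7 genes was not tested. The test of whether the substrains responded differently called 0 of 7 members and 0 genes in all by edgeR. At an unadjusted p under 0.05 it had 1363 genes, none of them a member, and DESeq2 called 22 genes, none of them a member.

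Across the 11 libraries, Polk and Ercc5 had the closest pattern of any pair of the 7 (Pearson r = 0.92, Spearman rho = 0.85, on log2(CPM + 1)). These are descriptions over libraries that share the same treatment groups. The most opposed pair was Xpc and Polh (r = -0.80, rho = -0.78). Among 13633 genes with a mean of at least 1 CPM, the genes most like Polk were Ccdc152 (r = 0.98), Lncpint (r = 0.98) and Pxdc1 (r = 0.97). Those most like Ercc5 were Slc41a2 (r = 0.97), Poln (r = 0.97) and Chrnb1 (r = 0.96). Poln, polymerase nu, is itself a DNA polymerase gene of the bypass list below.

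The other genes of these pathways were counted from 6 lists covering lesion recognition, opening and incision, resynthesis and ligation, bypass polymerases, ubiquitination of the clamp PCNA, and dNTP supply. All 74 listed genes other than the 7 passed the filter. In the mean response 4 were called higher and 1 lower, which is 6.76% of them beside 10.4% of all genes. In ByJcl mice 5 were called higher and 0 lower, which is 6.76% beside 10.6% of all genes called in either direction and 5.75% called higher. In AJcl mice 1 (Rrm1, log2 0.80, edgeR adjusted p = 0.0414) was called higher, which is 1.35% beside 0.312% of all genes. The AJcl call of Rrm1 held in 8 of 22 other settings. No list gene was called between the substrains at baseline, at Day 5 or in the difference of responses. The median log2 fold change of the 74 in the mean response was 0.0013.

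Of the opening and incision list (16 genes besides Ercc5), only Ercc1 was called in the mean response, and it rose by 0.89 on the log2 scale (edgeR adjusted p = 0.00157). Ercc1 was called in ByJcl mice (log2 1.16, edgeR adjusted p = 0.00255) but not in AJcl mice (log2 0.62, edgeR adjusted p = 0.240). ERCC1 is the partner of the nuclease that cuts on the 5′ side of the lesion, opposite the cut of ERCC5. Ercc1 was at 16.9, 17.4 and 16.2 CPM in AJcl baseline libraries, at 25.1 and 26.6 CPM in AJcl Day 5, at 21.4, 18.2 and 19.4 CPM in ByJcl baseline and at 36.4, 57.3 and 38.4 CPM in ByJcl Day 5 libraries. The 2 treatment groups were separate in both substrains, where 25.1% (AJcl) and 33.4% (ByJcl) of all tested genes did not overlap. Of the 12 recognition genes other than Xpc and Ddb2, 0 were called in the mean response and Rad23b, which stabilizes XPC, was called in ByJcl mice (log2 0.42, edgeR adjusted p = 0.0144). The ByJcl call of Rad23b held in 19 of 22 other settings, and its difference between the substrains' responses was not called (edgeR adjusted p = 0.620). None of the 17 resynthesis and ligation genes and none of the 11 PCNA ubiquitination genes was called in the 3 Day 5 responses.

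Among the 6 bypass polymerases besides Polk, Polh and Rev3l, Poln was called (log2 2.34, edgeR adjusted p = 0.0119), at low levels of 0.206 to 0.875 CPM in baseline libraries and 1.01 to 6.41 CPM in Day 5 libraries. In the dNTP list, Rrm1, the large subunit that pairs with either RRM2 or RRM2B, rose by 0.92 on the log2 scale (edgeR adjusted p = 0.000417). Rrm1 went from 34.9 to 39.1 CPM over the 6 baseline libraries to between 54.6 and 85.2 CPM over the 5 Day 5 libraries, while both small subunits were not called. Samhd1, which breaks down dNTPs, rose by 0.50 (edgeR adjusted p = 0.00845). Dctd, a deoxycytidylate deaminase, fell by 0.90 (edgeR adjusted p = 0.0172). These fold changes and p-values are of the mean response. Dctd was called in neither substrain alone (edgeR adjusted p = 0.316 in AJcl and 0.0519 in ByJcl). In AJcl alone, Poln and Samhd1 were not called (edgeR adjusted p = 0.337 and 0.205). In ByJcl alone both were called (edgeR adjusted p = 0.0274 and 0.0395).

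**Figure D4:**
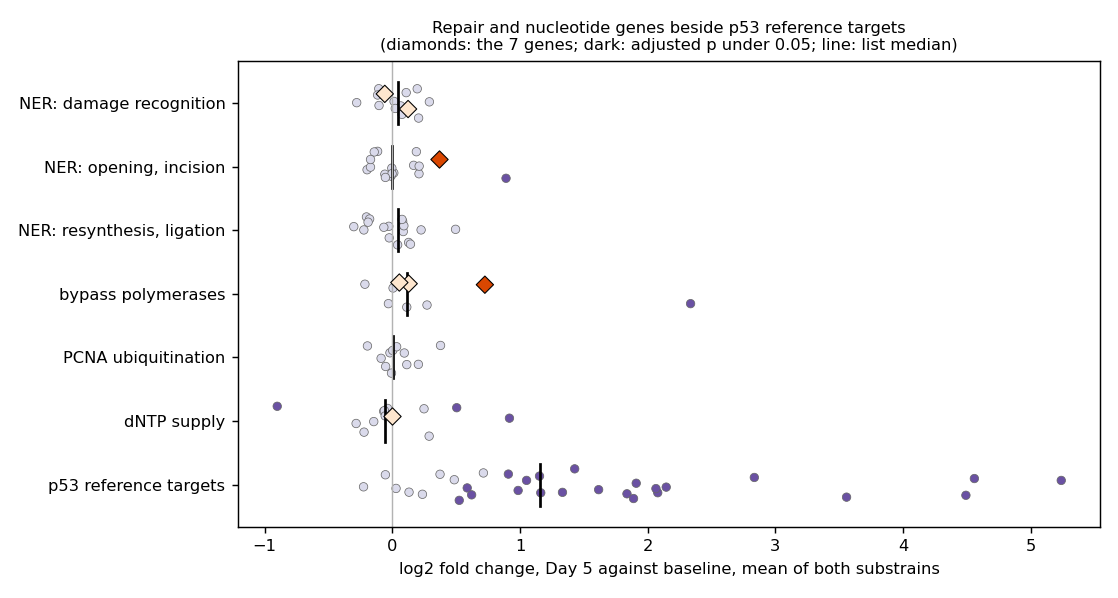
Mean Day 5 response (log2 fold change, horizontal axis) of every tested gene of the 6 pathway lists and of a reference list of p53 targets. Diamonds are the 7 genes, dark symbols passed the adjusted p threshold, and vertical lines are list medians. The pathway medians lie near 0, and that of the p53 reference list lies at 1.16.

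The reference list of 30 p53 targets, which holds none of the 7 genes, moved more. Of its 30 tested genes, 22 were called higher and 0 lower in the mean response, with a median log2 fold change of 1.16. In AJcl mice 10 were called higher, where 0.312% of all genes were called, and in ByJcl mice 22, where 5.75% of all genes were called higher. In both substrains 28 of the 30 had a positive log2 fold change, with medians of 1.00 in AJcl and 1.51 in ByJcl mice. The difference of responses (ByJcl minus AJcl), for which edgeR called no gene at all, was positive for 25 of 30 with a median of 0.44, and ByJcl minus AJcl at Day 5 was positive for 28 of 30 with a median of 0.38. The summed level of the list was 1490 to 1813 CPM over the baseline libraries and 2735 to 5259 CPM over the Day 5 libraries of the fit. The 7 repair genes had a median of 0.12 in the mean response, and their largest value, that of Polk, was below the reference median. This list and the 7 genes were chosen with earlier results of these data known. The contrast between them is therefore a description and not an independent test.

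Markers of the cell types in the preparation moved in the same comparison. Of 10 podocyte markers, 8 were called lower and 1 (Cdkn1c) higher in the mean response. In ByJcl mice alone the same counts were 8 and 1, beside 10.6% of all genes called. In AJcl mice alone 0 of 10 were called, beside 0.312% of all genes, with 9 of the 10 fitted log2 fold changes negative (median -0.32). The ByJcl median was -1.11. The difference of responses (ByJcl minus AJcl), for which edgeR called no gene at all, was negative for 9 of 10 with a median of -0.83, and ByJcl minus AJcl at Day 5 was negative for 9 of 10 with a median of -0.56 and 0 called. The summed podocyte level was 15644 to 21350 CPM in AJcl baseline and 12798 to 16577 CPM in AJcl Day 5 libraries, which overlapped. It was 19523 to 22600 CPM in ByJcl baseline and 9944 to 14009 CPM in ByJcl Day 5 libraries. The part of this shift in the values of Polk and Ercc5 was not tested. Of 6 tubular markers 0 were called, with sums of 400 to 3438 CPM at baseline and 335 to 1994 CPM at Day 5. Of 9 immune markers Cd68 alone was called higher. Their sums were 39.6 to 63.8 CPM at baseline and 31.7 to 69.1 CPM at Day 5 in AJcl mice, and 70.4 to 122.6 CPM and 76.1 to 131.1 CPM in ByJcl mice. None of 11 proliferation markers and none of 9 endothelial markers was called in the mean response, and 1 of 7 tested mesangial markers (Tagln) was called higher. The erythroid marker Alas2 was called lower, while the 4 globin genes listed with it were at 0 counts in every library and could not be tested. In ByJcl mice alone, 2 endothelial markers were called lower. What these other markers contribute to the values of the 7 genes was not tested.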

How the data were processed

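Per the labels, reads passed through Trimmomatic, STAR (genome GRCm39) and featureCounts. What the authors deposited are raw counts per gene, as whole numbers, for 26264 symbols in each of 12 libraries. CPM are counts per 1000000 counts of the TMM-scaled library. The annotation and the strand and pair settings of the counting are not given in the sources used here. Between 77.1% and 82.9% of counts from 1 to 49 were even, so a read pair may have been counted as 2, and a fit on halved counts was added to the alternatives. Counts were scaled by trimmed mean of M values (TMM) and tested with edgeR 4.0.16 (quasi-likelihood, filterByExpr, 17002 genes, 11 libraries, 1 coefficient per group), with calls at an adjusted p under 0.05. The self-test used simulated counts. DESeq2 1.42.0 was an alternative. Each replicate is a separate mouse sample by its label, and p-values measure only the spread between these samples. No 2 libraries of a group agreed within sampling noise. Intervals are 95% intervals of the fit. Exon lengths came from GENCODE vM39, promoters from RefSeq (GRCm38.p6). Named genes were all 7 members, up to 3 genes per pathway list and direction called, Rrm2, and the 3 genes with the highest Pearson r to each member called in the mean response. The members and lists were chosen with earlier results of these data known.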

Additional observations from a re-analysis of the deposited data

How the results depend on the processing

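Leaving out 1 library in turn gave 0 to 2 members called in ByJcl and in the mean response, and 0 in the other 4 comparisons. For Day 5 against baseline in ByJcl, 2 members (Polk and Ercc5) were called with DESeq2, with RLE size factors, with at least 1 CPM in 3 libraries and with halved counts. In the mean response, the replicate block (numbers from the labels) left 1 member, Polk, with Ercc5 at an edgeR adjusted p of 0.0544. Whether the numbers pair the samples was not settled. Of 18 same-number correlations of deviations, 7 exceeded 0.1 (range -0.42 to 0.57), and no chance level was set for this count. The next 3 settings were added after seeing the data. With A-ADR1 and A-ADR2 as AJcl Day 5, 0 members were called in the mean response (Polk adjusted p = 0.0528 by edgeR). With A-ADR1 and A-ADR3, 1 was called there and 0 in ByJcl, and with the block over all 12 libraries 0 in ByJcl. Polk was called in 19 of 21 settings in the mean response and 17 of 22 in ByJcl. Ercc5 was called in 10 of 21 and 7 of 22.

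Sign changes concerned values that were not called. With all 12 libraries, the log2 values became 0.017 (Rrm2b) and 0.0080 (Rev3l) between substrains at Day 5, -0.037 (Rev3l) in AJcl and -0.073 (Rev3l) in the mean response, and with the block over 12 libraries 0.022, 0.035, -0.064 and -0.10. With A-ADR1 and A-ADR2 they were 0.084 (Ddb2) and 0.13 (Rev3l) at Day 5, -0.053 and -0.17 in AJcl, -0.014 and -0.14 in the mean response, and 0.078 and 0.054 in the difference of responses. With A-ADR1 and A-ADR3 they were 0.073 (Ddb2), 0.13 (Rrm2b) and 0.17 (Rev3l) at Day 5, -0.076 (Ddb2), -0.042 (Xpc) and -0.22 (Rev3l) in AJcl, -0.015 (Ddb2) in ByJcl, -0.045 (Ddb2) and -0.19 (Rev3l) in the mean response, and 0.061 (Ddb2) and 0.078 (Rev3l) in the difference of responses. The mean response of Rrm2b became 0.0045 with DESeq2, 0.0046 with RLE, 0.0092 with the CPM filter and 0.0048 with halved counts. The cause was not tested.

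Leaving out 1 library crossed 0 between substrains at baseline for Ddb2 (-0.052 to 0.10), Xpc (-0.038 to 0.13), Polh (-0.10 to 0.066), Rev3l (-0.026 to 0.24) and Ercc5 (-0.050 to 0.12), and at Day 5 for Rrm2b (-0.19 to 0.13). It did so in AJcl for Xpc (-0.038 to 0.12), Polh (-0.12 to 0.028) and Rrm2b (-0.24 to 0.082), and in ByJcl for Ddb2 (-0.071 to 0.11). In the mean response it did so for Rrm2b (-0.092 to 0.069) and Rev3l (-0.00072 to 0.12), and in the difference of responses for Polk (-0.090 to 0.39), Rrm2b (-0.026 to 0.30) and Ercc5 (-0.00062 to 0.27). The log2 Rrm2b to Rrm2 ratio (Day 5 minus baseline) ranged from -0.59 to 0.13, the highest without AJcl Day 5 replicate 3.

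Counts over all genes moved more. At baseline 27 became 101 (DESeq2), 15 (only the 2 groups compared) and 15 (A-ADR1 and A-ADR2). Between substrains at Day 5, 28 became 72 (12 libraries), 535 (DESeq2), 56 (no filter), 6 (2 groups), 793 (A-ADR1 and A-ADR2), 15 (A-ADR1 and A-ADR3) and 58 (block, 12 libraries). In AJcl 53 became 301 (DESeq2), 99 (no filter), 33 (2 groups), 26 (replicate block), 22 and 148 (A-ADR1 with A-ADR2 or A-ADR3) and 26 (block, 12 libraries). In ByJcl 1800 became 1197 (12 libraries) and 1109 (block, 12 libraries), and in the mean response 1774 became 1040 (A-ADR1 and A-ADR2). In the difference of responses 0 became 22 (DESeq2) and 2 (A-ADR1 and A-ADR2). Leaving out 1 library gave 12 to 29, 9 to 218, 11 to 180, 680 to 2056, 531 to 1816 and 0 to 5 in that order. Of the other pathway genes, Ercc1 and Rrm1 were called in all 21 settings of the mean response, Dctd in 20, Poln in 19 and Samhd1 in 18. With 2 AJcl Day 5 libraries and 3 in each other group, small changes could not be resolved.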
